A study of Mus musculus with 13 samples.

Results

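BAPN with fasudil was compared with fasudil alone in the aorta of mice, across every gene with at least 1 FPKM (fragments counted on a gene, relative to transcript length and to the mapped fragments of the library) in at least 2 of the 6 libraries. This kept 13099 of the 28510 genes that have values in the table, and 6 of the 13 samples of the series. The combined group had 3 samples. Its mice drank BAPN (β-aminopropionitrile) at 0.25% for 1 week, and then BAPN at 0.25% with fasudil at 150 mg/kg/day. The fasudil group had 3 samples from an arm of 10 mice that drank fasudil alone at 150 mg/kg/day. BAPN alone (0.25%, an arm of 12 mice, 2 usable libraries) and vehicle (water, an arm of 11 mice, 4 libraries) are used below only to set the same genes beside an aorta without fasudil. Every group acclimatised for 1 week before an experiment that lasted 4 weeks. If the fasudil group drank fasudil throughout, the combined group had it for a shorter time. BAPN cannot be told apart from that difference. The labels call the combined treatment a way to induce aortic dissection. They give neither strain, age, sex nor the stage of the lesion, and do not say whether a sample is 1 aorta or several, so p-values measure the spread between these samples. The size of the combined arm is not given in the sources used here.

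BAPN blocks the lysyl oxidases, enzymes that crosslink collagen and elastin, and so weakens a growing aortic wall. Fasudil is a kinase inhibitor that relaxes smooth muscle. Serum response factor is a transcription factor of cytoskeletal and smooth muscle genes. An aorta sample holds smooth muscle, endothelium and adventitial fibroblasts. In rodents it also holds the perivascular fat, which around the thoracic aorta is brown fat, rich in mitochondria.

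Compared with fasudil alone, aortas given BAPN with fasudil had higher levels of matrix-associated genes such as Thbs1, Ccn2 and Timp1, of macrophage genes, and of actin-cytoskeleton genes. They had lower levels of genes for fatty acid oxidation, the respiratory chain, brown fat and cholesterol synthesis. These were differences between groups of 3 libraries that nearly all failed correction over all genes. Levels are given below as scaled FPKM, which are FPKM brought to a common scale between libraries. With limma's moderated test on log2(scaled FPKM + 1) and Benjamini-Hochberg adjustment, 1 of 13099 genes passed an adjusted p of 0.05 (0.00763% of genes), and it was lower. The next smallest adjusted p was 0.202. At an unadjusted p under 0.05 there were 2172 genes (16.6%), of which 894 were higher (6.82%) and 1278 lower (9.76%). The 3 combined libraries all lay above the 3 fasudil libraries in 1314 genes (10.0%) and all below them in 1579 genes (12.1%). Each count below of list members higher or lower without overlap is to be read beside these shares. A gene under 1 FPKM in every library of 1 group was tested only because of its level in the other group. This favours groups without overlap among low genes. The median log2 fold change of all genes was 0.01.

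One fasudil library decided the count. Without fasudil replicate 3, 669 genes passed (5.11%), 115 higher (0.878%) and 554 lower (4.23%). Without any other single library, 0 genes passed. All 669 had the same direction with all 6 libraries, and in 515 of them the groups did not overlap with all 6. Those 6 include the libraries that gave the calls, so neither count is an independent check. In fasudil replicate 3 the summed level was 7414 scaled FPKM for contractile smooth muscle genes, 1587 for collagens and 4256 for brown fat genes. In the other fasudil libraries it was 1003 and 1546 for smooth muscle, 259 and 459 for collagens, and 8149 and 8893 for brown fat. Vehicle libraries had 2917 to 7605 for smooth muscle, 566 to 1192 for collagens and 7074 to 12820 for brown fat. Fasudil replicate 3 was within the vehicle range for smooth muscle, above it for collagens and below it for brown fat. The other fasudil libraries were below that range for smooth muscle and collagens and within it for brown fat. The calls without fasudil replicate 3 thus rest on the fasudil libraries with the lowest smooth muscle and collagen sums. Below, "passed" without further words refers to the 6-library test, and calls without fasudil replicate 3 are named as such.

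The libraries also differed in tissue makeup within each group. Summed over all 18 nerve genes of the list, whether tested or not, the level was 949, 85.4 and 193 scaled FPKM in the combined libraries, against 50.4, 733 and 1608 in the fasudil libraries. The 12 skeletal muscle genes summed to between 37.2 and 354 in the combined libraries, against 787 in fasudil replicate 1 and 48.0 and 57.0 in the other fasudil libraries. Interferon-response genes summed to 2404 in combined replicate 1, and to 364 and 410 in the other combined libraries, against 246 to 450.0 in fasudil. The airway gene Scgb1a1 reached 149 scaled FPKM in combined replicate 2, against at most 9.17 in fasudil. Of the 12 libraries, BAPN replicate 1 stood apart with 10.5% of its FPKM from immunoglobulin genes, against at most 0.0463% in the other libraries. Vehicle replicate 3 held RNA of airway genes at a summed 15670.0 scaled FPKM, against at most 276 in the combined and 42.1 in the fasudil libraries. Depth, estimated from the steps between low FPKM values, was 20.3 to 20.95 M reads per library. Mitochondrially encoded genes took 31.3% to 40.5% of FPKM in combined libraries, against 40.9% to 51.1% in fasudil libraries. Haemoglobin genes took 1.35% to 3.45% in combined libraries, against 0.240% to 1.11% in fasudil libraries. Neither range overlapped, and the two-sided exact permutation p was 0.1 for each, the smallest that 3 against 3 allows. Such a bulk measurement cannot tell fewer cells of a type from less RNA per cell. The part of these differences in the results below was not tested.

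**Figure D1:**
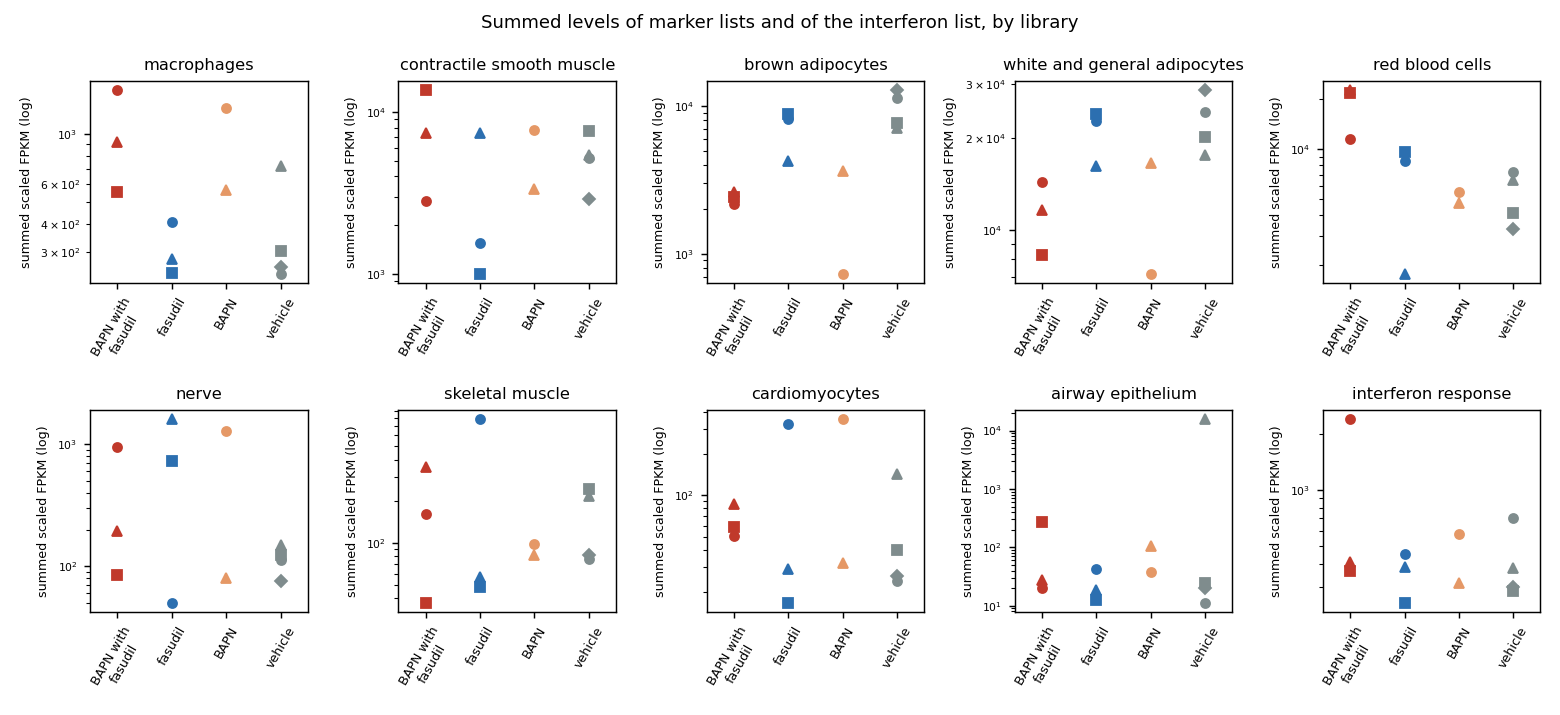
Summed scaled FPKM of all genes in the table, tested or not, of 9 marker lists and the interferon list (log axes), 1 point per library, in the order BAPN with fasudil, fasudil, BAPN and vehicle; the symbol gives the replicate number. Macrophage sums of the combined libraries (554 to 1565) lay above those of fasudil (244 to 409), brown fat sums lay below (2167 to 2624 against 4256 to 8893), and nerve and muscle sums spread widely within both groups.

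The labelled tissue was checked against its defining markers. All 7 contractile smooth muscle markers, all 4 endothelial and all 5 adventitial fibroblast markers were at 1 FPKM or more in all 6 libraries, as were all 8 macrophage, 6 of 7 brown fat and all 5 white fat markers. None of the 4 T cell and none of the 4 skeletal muscle markers reached 1 FPKM in all 6. No list of defining markers had a member listed at 0 throughout.

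The only gene that passed was Dnajb6-ps, named as a pseudogene of the chaperone gene Dnajb6, on chromosome 12 (64833085 to 64833775, GRCm39). It was listed at 0 in all 3 combined libraries, against 5.75, 6.58 and 5.96 scaled FPKM in fasudil libraries, with an adjusted p of 0.0104. Dnajb6-ps thus met the filter only through the fasudil libraries. Vehicle libraries had 4.22, 0, 6.62 and 1.80, so it was also listed at 0 in 1 vehicle library. Dnajb6 itself had 59.3, 37.1 and 40.5 scaled FPKM in combined libraries, against 48.9, 52.3 and 59.5 in fasudil libraries. A pseudogene can share reads with its parent, so this value is uncertain. Its adjusted p lay between 0.0587 and 0.279 when combined replicate 1, 2 or 3 or fasudil replicate 1 or 2 was left out, and was 0.041 without fasudil replicate 3. It was 0.129 with all 4 groups in the fit and 0.0831 with vehicle added, so the call was lost in both.

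The 12 genes with the smallest p among those higher in combined aortas, with groups that did not overlap and a mean of at least 5, came from 910 such genes. Vcam1, an adhesion molecule that holds leukocytes on endothelium, had 19.0, 17.5 and 21.0 scaled FPKM in combined aortas, against 6.27, 6.49 and 7.75 in fasudil aortas, a log2 fold change of 1.37 ± 0.15 (SE). Thbs1, a secreted glycoprotein that can activate latent TGF-beta, had 18.4, 14.4 and 27.7 scaled FPKM in combined aortas, against 3.47, 2.20 and 2.90 in fasudil aortas (log2 2.42 ± 0.26). In both genes the lowest combined library was well above the highest fasudil library. Ccn2, connective tissue growth factor, had 198, 449 and 235 scaled FPKM in combined aortas, against 52.3, 24.4 and 47.4 in fasudil aortas (log2 2.78 ± 0.41). It is a classical target of TGF-beta and of the mechanosensitive factor YAP.

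Nedd9, a scaffold of focal adhesions, had 9.90, 11.9 and 7.64 scaled FPKM in combined aortas, against 3.34, 3.22 and 3.45 in fasudil aortas. Marcksl1, an actin-binding substrate of protein kinase C, had 9.58, 10.8 and 9.50 in combined aortas, against 3.88, 2.40 and 4.08 in fasudil aortas. No combined library was near a fasudil library in either gene. Il3ra, a receptor subunit for interleukin-3, had 19.7, 12.8 and 11.8 in combined aortas, against 4.91, 4.41 and 4.39 in fasudil aortas. Crlf2, which binds the cytokine TSLP, was the other receptor subunit. Its levels were 15.1, 20.1 and 18.1 scaled FPKM in combined aortas, against 5.37, 6.01 and 8.42 in fasudil aortas. Arid5a, an RNA-binding protein that stabilises interleukin-6 mRNA, had 12.1, 18.0 and 10.7 in combined aortas, against 3.10, 3.17 and 3.86 in fasudil aortas. The groups were far apart in each of these genes, and the fasudil libraries lay close together in Nedd9, Il3ra and Arid5a. Sertad1, Limd2 and Pxdc1 had log2 fold changes of 1.18 ± 0.17, 0.93 ± 0.13 and 1.21 ± 0.18. Each of the 12 had an adjusted p of 0.202, above the threshold. Without fasudil replicate 3 all 12 passed, with adjusted p between 0.041 and 0.0457, beside 0.878% of all genes called higher. The 12 were chosen for small p in libraries that include these, so this is no independent check.

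Whether counting used strand is not given in the sources used here. Of the lower genes that follow, Acaa1b, Syngr1 and Echdc1 overlap a gene on the opposite strand in part of their span. If strand was not used, reads of such a pair cannot be told apart within the shared stretch.

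**Figure D2:**
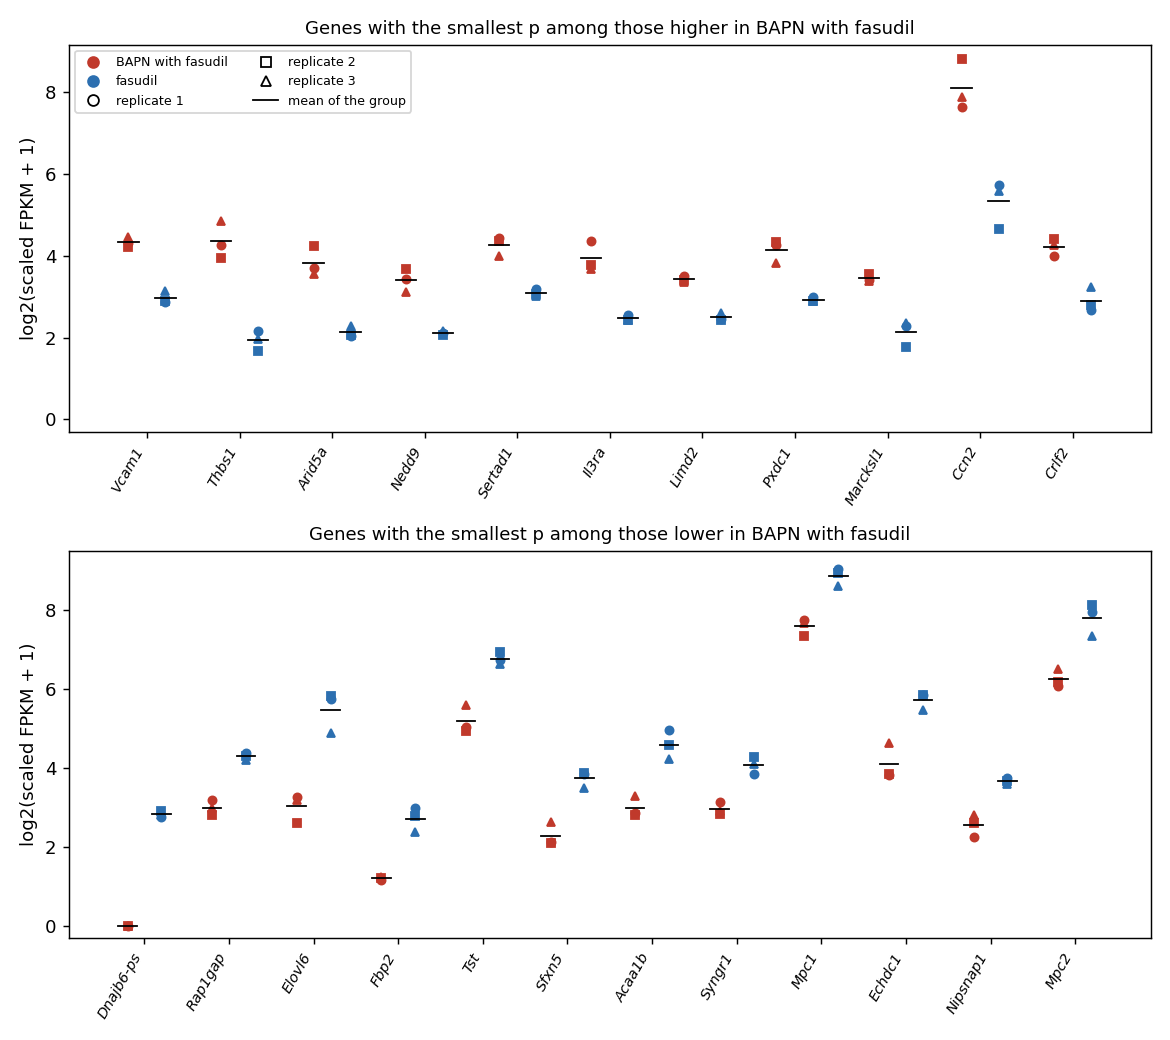
log2(scaled FPKM + 1) of 23 genes chosen by the naming rule in each library; BAPN with fasudil is to the left of fasudil for each gene, symbols give the replicate number and black lines the group mean. In the upper panel every combined library lies above every fasudil library, and in the other panel beneath them, which the naming rule required; Dnajb6-ps is listed at 0 in the 3 combined libraries.

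The 12 named lower genes were drawn from 1237 that met the same conditions, and include Dnajb6-ps. Elovl6, which elongates palmitate, had 8.67, 5.08 and 8.18 scaled FPKM in combined aortas, against 52.1, 55.0 and 28.7 in fasudil aortas (log2 -2.45 ± 0.31). Mpc1 and Mpc2 form the carrier that brings pyruvate into mitochondria. Mpc1 had 212, 160.2 and 201 scaled FPKM in combined aortas, against 522, 486 and 385 in fasudil aortas. Mpc2 had 65.8, 70.6 and 89.9 in combined aortas, against 243, 279 and 160.3 in fasudil aortas. The subunits shared the same pattern, with fasudil replicate 3 the lowest of its group in each. Acaa1b, a peroxisomal thiolase, had 6.20, 5.99 and 8.76 in combined aortas, against 29.99, 22.8 and 17.6 in fasudil aortas. Fbp2, the muscle form of fructose bisphosphatase, had 1.24, 1.33 and 1.36 in combined aortas, against 6.99, 5.84 and 4.23 in fasudil aortas. It varied little among the combined libraries and was well above them in each fasudil library.

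Rap1gap, which switches off the small GTPase Rap1, had 8.10, 6.03 and 6.94 scaled FPKM in combined aortas, against 19.8, 18.9 and 17.5 in fasudil aortas (log2 -1.31 ± 0.15). Tst, the mitochondrial sulfurtransferase rhodanese, had 32.0, 29.7 and 47.6 in combined aortas, against 104, 122 and 98.5 in fasudil aortas. Echdc1, which removes ethylmalonyl-CoA formed as a side product of fatty acid synthesis, had 13.2, 13.3 and 23.6 in combined aortas, against 56.0, 56.8 and 43.3 in fasudil aortas. The groups were separated by a wide gap in each of the 3. Sfxn5, a mitochondrial sideroflexin, Nipsnap1, a mitochondrial matrix protein, and Syngr1, a synaptic vesicle protein, had log2 fold changes of -1.45 ± 0.21, -1.11 ± 0.18 and -1.11 ± 0.17. Apart from Dnajb6-ps, each had an adjusted p of 0.202. Without fasudil replicate 3 all 12 named lower genes passed, with adjusted p between 0.041 and 0.0472, beside 4.23% of all genes called lower. These 12 were also chosen for small p in libraries that include those used here, so this is no independent check.

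The targets of the 2 drugs were measured at the RNA level, which need not follow the activity of an inhibited enzyme. Lox, the main lysyl oxidase of the aorta, had 20.5, 69.2 and 55.6 scaled FPKM in combined aortas, against 15.0, 9.66 and 17.8 in fasudil aortas (log2 1.58 ± 0.48, adjusted p = 0.241). Its lowest combined library was just above the highest fasudil library. Loxl1, Loxl2 and Loxl3 overlapped between groups, with log2 fold changes of 0.95 ± 0.50, 0.94 ± 0.46 and 1.41 ± 0.57. Loxl4 was below the filter. Of the 13 tested genes of collagen and elastin crosslinking and collagen folding, all had a positive log2 fold change (median 0.94). In 4 the groups did not overlap (30.8%, beside 10.0% of all genes): Lox, Plod1, Plod3 and P4ha1. P4ha1, which hydroxylates collagen prolines, passed without fasudil replicate 3 (adjusted p = 0.049).

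Rock1 and Rock2, the kinases that fasudil inhibits, were higher in combined aortas without passing. Rock1 had 12.2, 19.0 and 14.3 scaled FPKM in combined aortas, against 7.42, 6.47 and 8.63 in fasudil aortas (log2 0.91 ± 0.20, adjusted p = 0.223). Rock2 had 10.6, 16.1 and 12.3 in combined aortas, against 8.06, 6.87 and 8.40 in fasudil aortas (log2 0.66 ± 0.19, adjusted p = 0.23). The groups did not overlap in either gene. Vehicle aortas had 12.9 ± 1.03 for Rock1 and 8.62 ± 0.841 for Rock2 (SD, n = 4).

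Matrix gene lists had positive medians, although few members separated the groups. The 17 tested collagen genes had a median log2 fold change of 1.68, beside 0.01 for all genes. Of them, 3 were higher without overlap (17.6%, beside 10.0% of all genes): Col4a1, Col12a1 and Col16a1. The main fibrillar collagens overlapped. Col1a1 had 224, 610.4 and 423 scaled FPKM in combined aortas, against 61.2, 23.7 and 227 in fasudil aortas (log2 2.46 ± 0.82, adjusted p = 0.252). Col3a1 had 239, 472 and 498 in combined aortas, against 54.8, 19.2 and 318 in fasudil aortas. In both, fasudil replicate 3 lay within the combined range, and without it Col1a1, Col3a1 and Col16a1 passed while the list median was 2.48. The 16 elastic fibre genes had a median of 1.23, with 4 higher without overlap (25%, beside 10.0% of all genes): Fbln1, Fbln2, Mfap2 and Mfap5. Mfap5, a microfibril protein, had 129, 242 and 166 in combined aortas, against 59.0, 28.8 and 122 in fasudil aortas. Without fasudil replicate 2 the collagen median was 0.96 and the elastic fibre median 0.90.

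Among the 21 glycoproteins and proteoglycans of the matrix all had a positive log2 fold change (median 1.47), and 6 were higher without overlap (28.6%, beside 10.0% of all genes). The 6 were Thbs1, Ccn2, Ccn1, Cthrc1, Dcn and Comp, and the median was 0.99 without fasudil replicate 2. Ccn1, a sister gene of Ccn2, had 209, 129.7 and 55.2 scaled FPKM in combined aortas, against 13.8, 17.0 and 28.2 in fasudil aortas (log2 2.55 ± 0.51). Cthrc1, a secreted protein of activated fibroblasts, had 3.73, 8.34 and 8.55 in combined aortas, against 3.37, 1.12 and 2.03 in fasudil aortas. Combined replicate 3 was the lowest of its group for Ccn1, and combined replicate 1 the lowest for Cthrc1, just above fasudil replicate 1. Decorin (Dcn), which binds collagen fibrils, had 588, 444 and 507 in combined aortas, against 424, 226 and 286 in fasudil aortas.

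Of 27 tested matrix proteases and inhibitors, 10 were higher without overlap (37.0%, beside 10.0% of all genes) and 0 lower (median 1.08). Timp1, an inhibitor of matrix metalloproteinases, had 38.2, 56.7 and 178 scaled FPKM in combined aortas, against 10.3, 3.68 and 12.6 in fasudil aortas (log2 3.05 ± 0.66, adjusted p = 0.223). The receptor and the activator of the plasmin system showed the same order. Plaur, the urokinase receptor, had 17.1, 10.2 and 10.6 in combined aortas, against 4.24, 4.05 and 4.77 in fasudil aortas. Plat, tissue plasminogen activator, had 11.7, 13.9 and 11.6 in combined aortas, against 5.72, 5.51 and 7.38 in fasudil aortas. Plaur and Plat passed without fasudil replicate 3 (adjusted p = 0.0486 and 0.041). Adam8, a membrane protease of leukocytes, had 5.19, 3.13 and 6.73 in combined aortas, against 1.25, 0.584 and 0.932 in fasudil aortas. Stromelysin 1 (Mmp3) had 18.7, 21.4 and 43.9 and gelatinase A (Mmp2) 70.7, 120.3 and 131 in combined aortas. In fasudil aortas Mmp3 had 12.1, 4.06 and 6.24 and Mmp2 67.8, 32.9 and 48.9. The member called lower without fasudil replicate 3 was Adam12, with a log2 fold change of -1.35 ± 0.56 over all 6 libraries. Combined replicate 3 was the highest library for Timp1, Mmp3 and Mmp2.

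TGF-beta family genes followed at a smaller size: 9 of 24 were higher without overlap (37.5%, beside 10.0% of all genes), 0 lower, with a median of 0.71. Tgfb1, the ligand, had 29.4, 45.3 and 36.0 scaled FPKM in combined aortas, against 17.4, 16.0 and 19.3 in fasudil aortas (log2 1.01 ± 0.19, adjusted p = 0.222). Smad7, the inhibitory Smad that TGF-beta signalling induces, had 6.67, 9.42 and 6.64 in combined aortas, against 2.18, 3.15 and 4.46 in fasudil aortas. It passed without fasudil replicate 3 (adjusted p = 0.0484). Tgfb3 had 11.5, 24.7 and 20.3 in combined aortas, against 6.40, 3.76 and 11.1 in fasudil aortas. Bmp2 had 1.59, 1.37 and 2.33 in combined aortas, against 0.748, 0.669 and 0.699 in fasudil aortas, close to the filter.

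**Figure D3:**
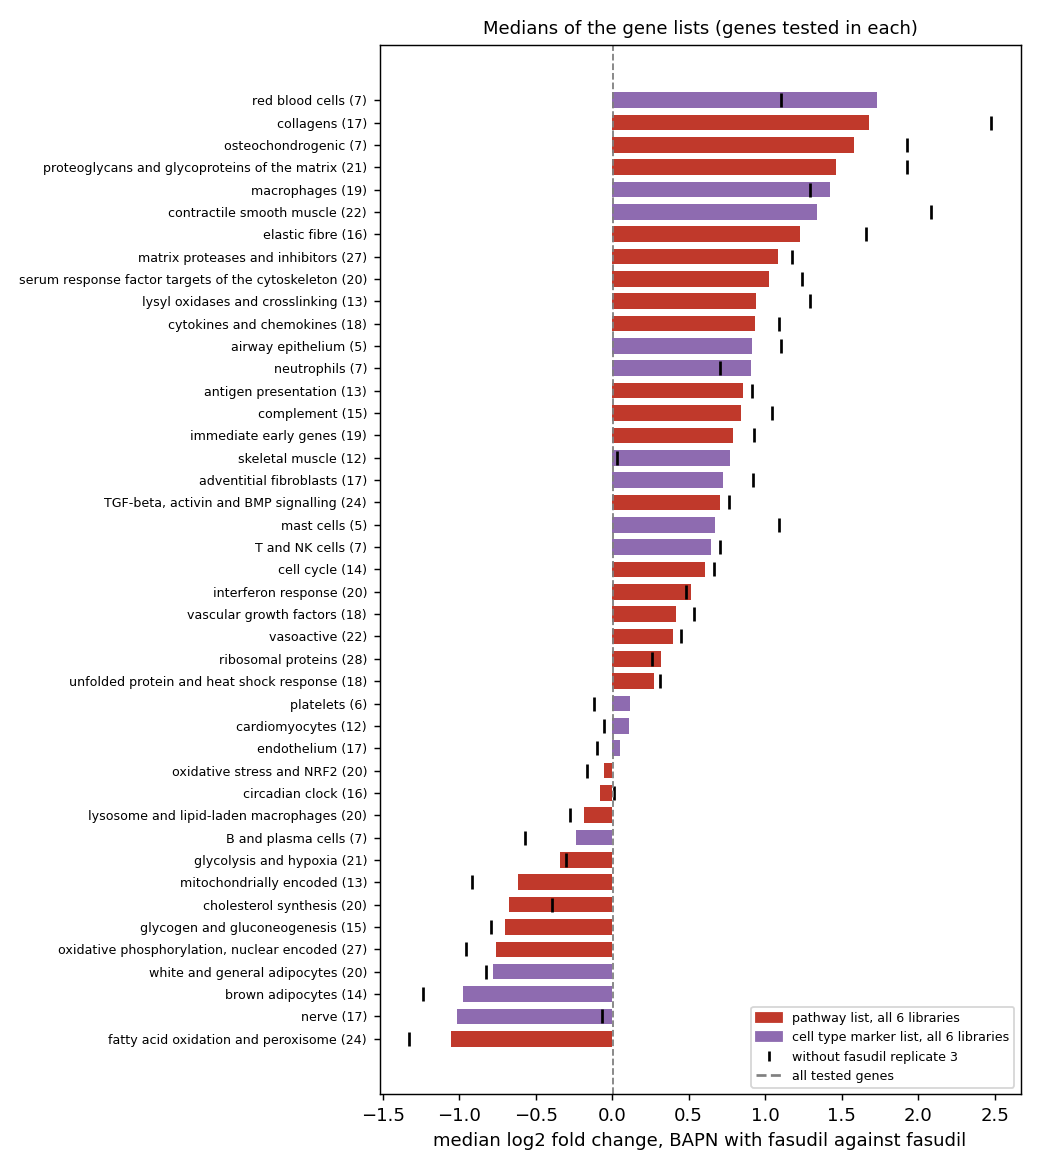
Median log2 fold change (BAPN with fasudil against fasudil) of each of 43 gene lists, with the number of tested genes in brackets; bars use all 6 libraries, ticks leave out fasudil replicate 3, and the dashed line is the median of all tested genes. Red blood cells (1.73) and collagens (1.68) stand at the upper end and fatty acid oxidation (-1.05) at the lower; the nerve median moves from the lower end to near 0 without fasudil replicate 3.

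Promoters of Srf and Actg1, from 250 bases before to 50 after the start site, are printed because they hold CArG boxes, the element that serum response factor binds. Sequences are from RefSeq, build GRCm38.p6, on the strand of the gene; capitals mark CArG boxes.
Srf (chr17:46556113-46556412, minus strand): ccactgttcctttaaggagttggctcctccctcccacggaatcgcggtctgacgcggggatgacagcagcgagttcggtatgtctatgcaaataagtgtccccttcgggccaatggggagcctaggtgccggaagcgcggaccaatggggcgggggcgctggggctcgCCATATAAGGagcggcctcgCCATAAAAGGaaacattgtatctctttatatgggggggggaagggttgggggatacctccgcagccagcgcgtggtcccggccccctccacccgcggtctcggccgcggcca
Actg1 (chr11:120348446-120348745, minus strand): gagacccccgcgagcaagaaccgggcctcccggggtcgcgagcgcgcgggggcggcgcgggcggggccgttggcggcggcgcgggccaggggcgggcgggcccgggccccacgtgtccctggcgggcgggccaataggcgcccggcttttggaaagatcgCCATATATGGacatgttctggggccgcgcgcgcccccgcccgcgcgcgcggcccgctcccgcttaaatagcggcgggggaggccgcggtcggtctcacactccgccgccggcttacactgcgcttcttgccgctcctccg
Of 20 tested cytoskeletal genes of this program, 19 matched a promoter in the table. Of these 19, 6 (31.6%) hold a CArG box, against 1.81% of 27025 genes with a promoter. A gene was counted if any of its promoters held a match. The 6 are Srf, with 2 boxes, Vcl, Actg1, Filip1l, Fhl1 and Fhl2. Both strands were searched. A match describes the letters of this window only. The list was made of targets of serum response factor, so its share of CArG boxes follows from its making and is no result of these data. Among members named below, the promoters of Tpm4 and Myl12a held 0 CArG boxes.

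Of the 20 cytoskeletal genes, 8 were higher without overlap (40%, beside 10.0% of all genes) and 0 lower, with a median log2 fold change of 1.02. Srf itself had 41.1, 37.7 and 23.1 scaled FPKM in combined aortas, against 15.8, 14.4 and 18.3 in fasudil aortas (log2 0.99 ± 0.24, adjusted p = 0.229). Its coactivator Mrtfa had 8.75, 8.21 and 7.95 in combined aortas, against 5.67, 5.54 and 5.54 in fasudil aortas. Both regulators were higher in every combined library. Cytoplasmic beta-actin (Actb) had 1255, 2049 and 1659.9 in combined aortas, against 495, 441 and 976 in fasudil aortas (log2 1.44 ± 0.36). Gamma-actin (Actg1) had 518, 612 and 479.9 in combined aortas, against 189, 213 and 416 in fasudil aortas (log2 1.06 ± 0.32). Fasudil replicate 3 was the highest of its group for both actins, and both passed without it (adjusted p = 0.041 for each). Tropomyosin 4 (Tpm4) had 52.2, 90.0 and 81.1 and the regulatory light chain Myl12a 115, 144 and 122 in combined aortas. In fasudil aortas Tpm4 had 33.1, 27.6 and 43.3 and Myl12a 73.7, 66.8 and 83.0.

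Contractile smooth muscle genes did not separate the groups in the same way. Of 22 tested, 1 was higher without overlap (4.55%, beside 10.0% of all genes): Myocd, the smooth muscle partner of serum response factor. Myocd had 1.95, 2.76 and 1.97 scaled FPKM in combined aortas, against 0.307, 0.180 and 0.485 in fasudil aortas (log2 1.28 ± 0.20, adjusted p = 0.202), and passed without fasudil replicate 3 (adjusted p = 0.0431). Its fasudil libraries were all under the filter of 1 FPKM. Myocd was thus tested only through the combined libraries, where it is high, and its separation is weak support. The contractile proteins overlapped. Tagln had 581, 2532 and 1374 in combined aortas, against 270.5, 154 and 1288 in fasudil aortas (log2 1.74 ± 0.89). Myh11, the smooth muscle myosin heavy chain, had 126, 529.9 and 289 in combined aortas, against 55.2, 39.1 and 311 in fasudil aortas. Fasudil replicate 3 was close to combined replicate 3 in both genes, and fasudil replicates 1 and 2 were the lowest of all 6. The list median was 1.34, and between 0.82 and 2.09 with 1 library left out.

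All 19 tested immediate early genes had a positive log2 fold change, 7 of them without overlap (36.8%, beside 10.0% of all genes). Their median was 0.79, or 0.37 without combined replicate 1. Atf3, a stress-induced factor, had 40.7, 11.1 and 8.63 scaled FPKM in combined aortas, against 1.45, 2.53 and 4.32 in fasudil aortas. Jund had 141, 201 and 146 in combined aortas, against 73.3, 95.2 and 112 in fasudil aortas. Combined replicate 1 was far above the others for Atf3. Of 14 tested cell cycle genes, 6 were higher without overlap (42.9%, beside 10.0% of all genes). The other 6 genes of that list were below the filter. Top2a, topoisomerase of dividing cells, had 4.29, 5.29 and 1.73 in combined aortas, against 0.491, 0.626 and 1.21 in fasudil aortas. Low members such as Top2a met the filter mainly through the combined libraries, which favours such a count. Among vascular growth factors, placental growth factor (Pgf) had 14.8, 6.29 and 14.4 in combined aortas, against 2.42, 2.23 and 2.34 in fasudil aortas (log2 1.86 ± 0.32, adjusted p = 0.202). Ptgs2, the inducible cyclooxygenase, had 2.04, 1.59 and 2.59 in combined aortas, against 0.282, 0.138 and 0.923 in fasudil aortas. It too met the filter of 1 FPKM only through the combined libraries.

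Macrophage genes were higher in combined aortas in nearly every member. Of 19 tested, 15 were higher without overlap (78.9%, beside 10.0% of all genes) and 0 lower, and all 19 had a positive log2 fold change (median 1.43). The median was 1.00 without combined replicate 1. Ms4a7, a marker of tissue macrophages, had 5.79, 5.26 and 7.57 scaled FPKM in combined aortas, against 2.38, 1.67 and 1.08 in fasudil aortas (log2 1.43 ± 0.23, adjusted p = 0.202). It was the member that passed without fasudil replicate 3 (adjusted p = 0.0457). C1qa and C1qb are chains of the complement starter C1q. C1qa had 284, 78.5 and 138 in combined aortas, against 52.3, 34.4 and 40.2 in fasudil aortas. C1qb had 257, 92.2 and 138 in combined aortas, against 57.9, 31.7 and 38.9 in fasudil aortas (log2 1.81 ± 0.41, adjusted p = 0.225). Combined replicate 1 was the highest library for both, and the others were also above every fasudil library. Tyrobp, the adaptor of myeloid activating receptors, had 85.3, 31.9 and 50.1 in combined aortas, against 20.8, 12.5 and 15.7 in fasudil aortas.

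Genes of lipid-laden macrophages split. Trem2, a lipid receptor of macrophages, had 5.46, 11.6 and 10.6 scaled FPKM in combined aortas, against 2.78, 1.03 and 1.36 in fasudil aortas (log2 1.90 ± 0.35). Lgals3, galectin 3, had 49.3, 31.4 and 43.5 in combined aortas, against 16.3, 11.0 and 8.87 in fasudil aortas, and the tetraspanin Cd63 had 112, 164 and 155 in combined aortas, against 63.7, 57.6 and 93.7 in fasudil aortas. Both passed without fasudil replicate 3 (adjusted p = 0.0462 for each), as did Ctsz, which was lower. Trem2, Lgals3 and Cd63 were the members higher without overlap among 20 (15%, beside 10.0% of all genes), and the list median was -0.18. The list also holds Fabp4, Lpl and Cd36, which fat cells express, and their log2 fold changes were -0.97 ± 0.34, -1.10 ± 0.40 and -1.03 ± 0.48. Osteopontin (Spp1), on the same list, had 3.93, 20.0 and 644 in combined aortas, against 8.98, 2.88 and 2.35 in fasudil aortas. Combined replicate 3 was far above every other library, and the groups overlapped.

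Other immune lists were less regular. Of 15 complement genes, 8 were higher without overlap (53.3%, beside 10.0% of all genes), among them the 3 C1q chains and the inhibitor Serping1. Cfd, the adipocyte factor adipsin, was the 1 lower without overlap (6.67%, beside 12.1% of all genes). Serping1 had 557, 262 and 325 scaled FPKM in combined aortas, against 180.1, 75.1 and 161 in fasudil aortas. Of 18 cytokines and chemokines, 3 were higher without overlap (16.7%, beside 10.0% of all genes). One was Csf1, the macrophage growth factor, at 21.5, 20.3 and 18.0 in combined aortas, against 12.4, 6.18 and 12.0 in fasudil aortas. Interferon-response genes separated the groups in 1 of 20, Ifitm3, and antigen-presentation genes in 0 of 13. Their medians were 0.51 and 0.85, and -0.38 and 0.13 without combined replicate 1. Of 7 T and NK cell genes, 3 were higher without overlap (42.9%, beside 10.0% of all genes), at low levels. Cd8b1 was at 2.54, 1.299 and 2.47 in combined aortas, against 1.02, 0.276 and 0.363 in fasudil aortas. None of 7 neutrophil genes separated, and B and plasma cell genes had 1 of 7, Xbp1 (14.3%, beside 10.0% of all genes).

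Genes of fat and mitochondria gave the broadest lower set. Of 27 tested records of nuclear-encoded respiratory chain genes, 24 were lower without overlap (88.9%, beside 12.1% of all genes). All 27 had a negative log2 fold change (median -0.76). Without fasudil replicate 3, 17 passed, all lower, beside 4.23% of all genes. Cycs, cytochrome c, had 22.5, 23.2 and 21.5 scaled FPKM in combined aortas, against 48.99, 46.7 and 33.2 in fasudil aortas (log2 -0.89 ± 0.18, adjusted p = 0.222). Uqcrc2, of complex III, had 162, 146 and 190.2 in combined aortas, against 425, 379 and 248 in fasudil aortas. Fasudil replicate 3 was the lowest of its group in both, yet above the combined libraries. The 13 mitochondrially encoded genes all had negative log2 fold changes (median -0.62), with 4 lower without overlap (30.8%, beside 12.1% of all genes). Their median was -0.34 without fasudil replicate 1. One of them, mt-Nd1, had 19981, 17115 and 15459.6 in combined aortas, against 46131, 30617 and 25133 in fasudil aortas.

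Fatty acid oxidation followed the same order. Of 24 tested genes of mitochondrial and peroxisomal oxidation, 18 were lower without overlap, beside 12.1% of all genes, and 0 higher (median -1.05). Without fasudil replicate 3, 15 passed, all lower, beside 4.23% of all genes. Ucp3, an uncoupling protein of muscle and brown fat, had 6.16, 4.31 and 14.9 scaled FPKM in combined aortas, against 44.3, 53.1 and 37.1 in fasudil aortas (log2 -2.42 ± 0.41, adjusted p = 0.202). Ehhadh, the bifunctional enzyme of peroxisomes, had 10.7, 6.84 and 12.1 in combined aortas, against 41.3, 73.1 and 27.1 in fasudil aortas. Both had every combined library below every fasudil library, and combined replicate 2 was the lowest. Cpt2, which hands long-chain acyl groups to mitochondrial oxidation, had 38.7, 43.5 and 68.7 in combined aortas, against 178, 153 and 101 in fasudil aortas. The alpha subunit of the trifunctional protein (Hadha) had 281, 295 and 363 in combined aortas, against 849, 836 and 513 in fasudil aortas.

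Brown fat markers were lower in the same libraries. Of 14 tested, 9 were lower without overlap (64.3%, beside 12.1% of all genes) and all 14 had a negative log2 fold change (median -0.97). Ucp1, the uncoupling protein that makes heat in brown fat, had 551, 457 and 533 scaled FPKM in combined aortas, against 3779.6, 5244 and 1382 in fasudil aortas (log2 -2.56 ± 0.49, adjusted p = 0.222). Elovl3, a fatty acid elongase induced in active brown fat, had 0.420, 0.204 and 0.304 in combined aortas, against 24.3, 56.9 and 3.88 in fasudil aortas (log2 -3.88 ± 0.85). Otop1, a proton channel, had 5.16, 8.63 and 13.1 in combined aortas, against 45.2, 47.2 and 20.0 in fasudil aortas. Cidea, a lipid droplet protein, differed less, with 599, 464 and 524 in combined aortas, against 764, 758 and 707 in fasudil aortas. Ucp1, Elovl3 and Otop1 passed without fasudil replicate 3, with adjusted p of 0.041, 0.041 and 0.0439. In all 4 genes fasudil replicate 3 was the lowest fasudil library.

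Of 20 white and general fat markers, 6 were lower without overlap (30%, beside 12.1% of all genes; median -0.78). Agpat2, which makes phosphatidic acid for triglycerides, had 103, 131 and 209.8 scaled FPKM in combined aortas, against 527, 552 and 396 in fasudil aortas (log2 -1.77 ± 0.30, adjusted p = 0.202). Perilipin 1 (Plin1) had 234, 136 and 255 in combined aortas, against 554, 504 and 348 in fasudil aortas. Resistin (Retn) had 88.7, 83.0 and 144 in combined aortas, against 230.2, 201 and 204 in fasudil aortas. The summed brown fat list was 2167 to 2624 scaled FPKM in combined aortas, against 4256 to 8893 in fasudil aortas. The summed white fat list was 8299.7 to 14362 in combined aortas, against 16116 to 23884 in fasudil aortas. The part of the amount of fat in the metabolic lists was not tested.

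Glycogen and gluconeogenic genes were lower in 7 of 15 without overlap, or 46.7%, beside 12.1% of all genes (median -0.70, or -0.46 without fasudil replicate 1). Gys2, a glycogen synthase, had 4.67, 7.71 and 11.2 scaled FPKM in combined aortas, against 32.2, 33.1 and 19.4 in fasudil aortas (log2 -1.76 ± 0.34, adjusted p = 0.222). Gbe1, the branching enzyme, had 27.2, 21.4 and 27.8 in combined aortas, against 48.2, 41.0 and 41.3 in fasudil aortas. Pygl, a glycogen phosphorylase, had 33.0, 21.1 and 46.6 in combined aortas, against 88.1, 69.3 and 83.5 in fasudil aortas. Genes of synthesis and of breakdown thus had the same order. In glycolysis, 8 of 21 genes were lower without overlap (38.1%, beside 12.1% of all genes) and 3 higher (14.3%, beside 10.0%). The median was -0.34, or -0.54 without combined replicate 1. Eno1, enolase, had 305, 358 and 442 in combined aortas, against 695, 647 and 727 in fasudil aortas. The glucose transporter Slc2a1 had the opposite order, with 12.0, 16.5 and 16.9 in combined aortas, against 6.45, 8.46 and 7.88 in fasudil aortas.

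Of 20 tested cholesterol synthesis genes, 8 were lower in combined aortas without overlap, beside 12.1% of all genes, and 12 overlapped. Promoters of Hmgcs1 and Nsdhl are printed because the 2 genes had the smallest p of the list; capitals mark CCAAT boxes and the core TCACNCCAC of the sterol regulatory element, on either strand (RefSeq, GRCm38.p6, plus strand for both).
Hmgcs1 (chr13:119690101-119690400): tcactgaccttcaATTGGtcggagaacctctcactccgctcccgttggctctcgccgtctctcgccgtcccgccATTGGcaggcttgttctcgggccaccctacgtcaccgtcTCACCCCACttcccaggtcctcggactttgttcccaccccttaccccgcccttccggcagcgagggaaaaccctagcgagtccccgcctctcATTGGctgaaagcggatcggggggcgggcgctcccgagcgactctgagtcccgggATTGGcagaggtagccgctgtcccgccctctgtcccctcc
Nsdhl (chrX:72918271-72918570): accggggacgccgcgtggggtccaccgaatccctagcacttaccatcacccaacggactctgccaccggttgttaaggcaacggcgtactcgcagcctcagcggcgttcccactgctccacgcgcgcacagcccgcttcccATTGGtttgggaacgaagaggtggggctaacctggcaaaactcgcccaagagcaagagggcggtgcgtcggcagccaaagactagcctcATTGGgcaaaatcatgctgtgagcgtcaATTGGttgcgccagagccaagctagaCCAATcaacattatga
Of 20 tested genes, 14 matched a promoter in the table. All 14 hold CCAAT on at least 1 strand, against 41.1% of 27025 genes with a promoter. Hmgcs1, 1 of the 14, holds the sterol element core, against 1.44% of those genes. CArG boxes were in 0 of the 14, and CCAAT in 11 and the sterol core in 2 of the 19 cytoskeletal genes with a promoter. The 3 motifs were chosen with the results of these lists known. The shares describe the promoters of the listed genes, whether or not a gene separated the groups. They are no result of these data.

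All 20 genes had a negative log2 fold change (median -0.68, or -0.39 without fasudil replicate 3), and 0 passed. Nsdhl, a sterol dehydrogenase, had 8.01, 6.72 and 8.37 scaled FPKM in combined aortas, against 13.9, 15.5 and 14.7 in fasudil aortas (log2 -0.85 ± 0.14, adjusted p = 0.202). Hmgcs1, which makes HMG-CoA, had 21.5, 17.8 and 26.6 in combined aortas, against 42.9, 46.8 and 42.5 in fasudil aortas (log2 -0.99 ± 0.18, adjusted p = 0.219). Fasudil libraries lay close together in both genes. Sc5d, a desaturase late in the pathway, had 7.21, 6.77 and 8.77 in combined aortas, against 19.8, 24.5 and 12.96 in fasudil aortas. Insig1, a sensor that is itself a target of the sterol-regulated factors, had 13.3, 15.2 and 21.7 in combined aortas, against 28.9, 35.0 and 37.7 in fasudil aortas. The combined libraries lay below every fasudil library in each of the 4. Nsdhl and Sc5d passed without fasudil replicate 3 (adjusted p = 0.0472 and 0.041).

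**Figure D4:**
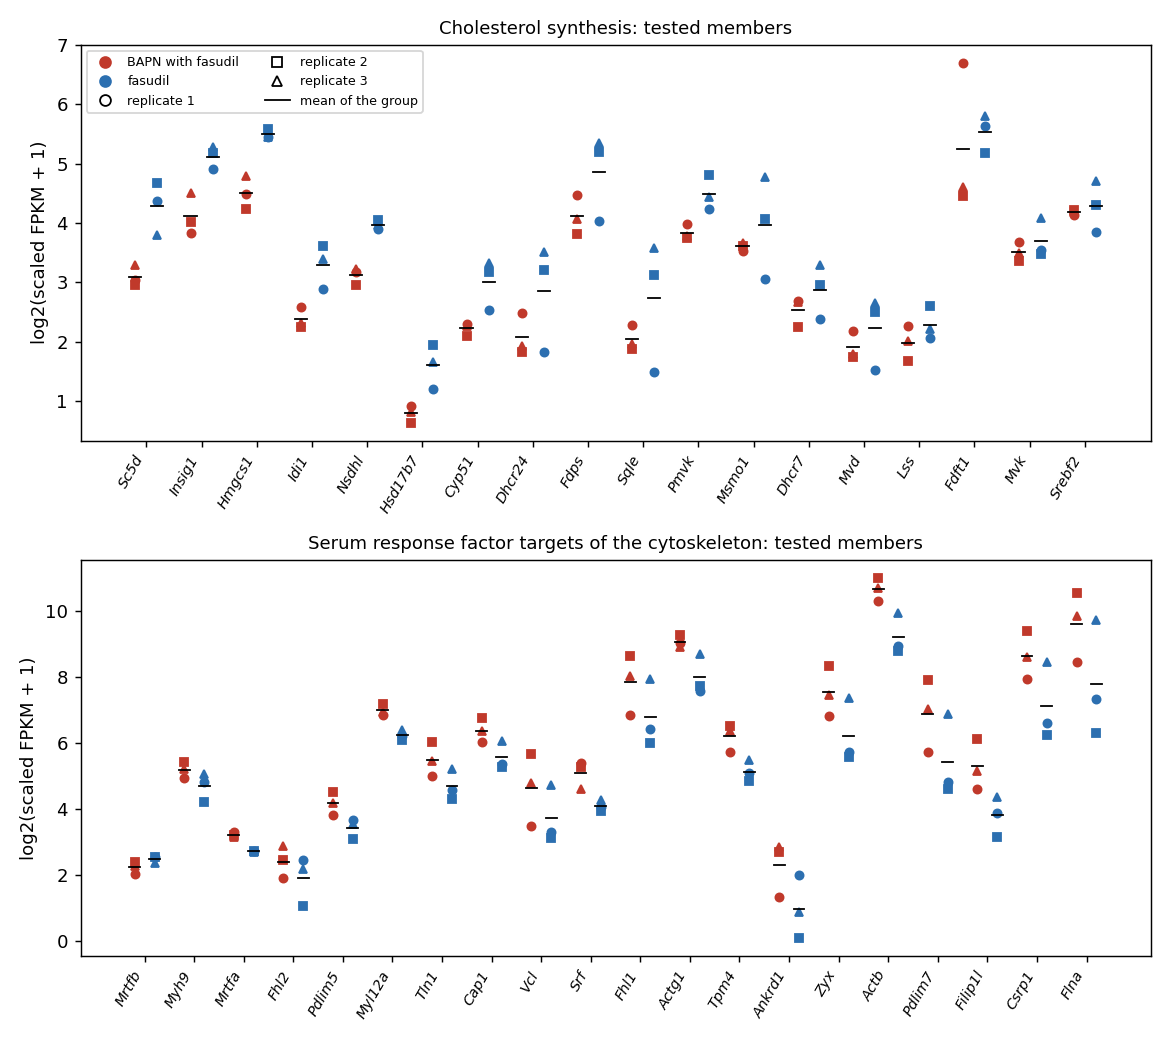
log2(scaled FPKM + 1) of 18 of the 20 tested cholesterol synthesis genes and all 20 tested cytoskeletal targets of serum response factor, by library, ordered by log2 fold change; BAPN with fasudil is left of fasudil and black lines are group means. The combined mean is below the fasudil mean in all 18 cholesterol genes plotted and above it in 19 of 20 cytoskeletal genes, and fasudil replicate 1 is the lowest fasudil library in 14 of the 18 cholesterol genes.

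Red cell genes were higher in combined aortas, with 4 of 7 without overlap (57.1%, beside 10.0% of all genes). Their median was 1.73, or 1.102 without fasudil replicate 3. Hbb-bt, a beta-globin, had 162, 289.7 and 264 scaled FPKM in combined aortas, against 66.2, 66.5 and 30.8 in fasudil aortas (log2 2.15 ± 0.37, adjusted p = 0.21). Alas2, the first enzyme of haem synthesis in erythroid cells, had 51.8, 74.5 and 66.0 in combined aortas, against 18.6, 24.1 and 5.73 in fasudil aortas. Both passed without fasudil replicate 3, the lowest library for each (adjusted p = 0.0439 and 0.041). Globin copies are nearly identical, so reads may be split among them. Heme oxygenase 1 (Hmox1), which breaks down haem, had 33.7, 29.5 and 159 in combined aortas, against 9.22, 12.4 and 6.26 in fasudil aortas, with combined replicate 3 far above the rest. Of the 20 antioxidant genes with Hmox1, 4 were higher (20%, beside 10.0% of all genes) and 6 lower (30%, beside 12.1%) without overlap. Sod2 and Cat, which remove superoxide and peroxide, were among the lower ones, with log2 fold changes of -0.82 ± 0.22 and -1.13 ± 0.38, and both passed without fasudil replicate 3.

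The endothelial, cardiac, skeletal muscle, nerve and clock lists hardly separated the groups, and the other lists given here did so in part. None of 17 endothelial genes had groups without overlap, and their median was 0.05. None of 12 cardiac and none of 12 skeletal muscle genes did, and of 17 nerve genes 1 did, S100b, which is on the brown fat list too. Of 16 clock genes 1 did, Tef, with a median of -0.08. Adventitial fibroblast markers were higher in 5 of 17 without overlap, or 29.4%, beside 10.0% of all genes (median 0.72, or 0.43 without fasudil replicate 2). Pi16 was at 108, 68.4 and 90.9 scaled FPKM in combined aortas, against 31.0, 20.9 and 67.3 in fasudil aortas. Ribosomal protein genes were higher in 6 of 28 without overlap (21.4%, beside 10.0% of all genes), at small size (median 0.32, or 0.20 without combined replicate 1). Of 18 genes of protein folding stress, 8 were higher (44.4%, beside 10.0% of all genes) and 1 lower without overlap. Hspb1 was at 177, 235 and 174 in combined aortas, against 119.9, 110.2 and 121 in fasudil aortas.

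The same genes were then set beside the effect of BAPN without fasudil. BAPN against vehicle shares no library with the combined against fasudil comparison, but it rests on 2 BAPN libraries, 1 of which stood apart. No gene passed in BAPN against vehicle (0%), and 2617 genes (20.0%) had an unadjusted p under 0.05. Of the 12 named higher genes 10 also had a positive log2 fold change there, and of the 12 named lower genes 11 had a negative one. Over all 13099 genes the signs were the same in 70.5%. With BAPN replicate 3 alone set against vehicle the counts were 9 and 11, and the share of all genes was 60.5%. Thbs1 had 28.5 and 9.61 scaled FPKM in the BAPN libraries, against 1.76 ± 1.11 in vehicle (SD, n = 4), and Elovl6 had 5.10 and 28.3 in BAPN libraries, against 66.9 ± 23.9 in vehicle. BAPN replicate 3 lay between replicate 1 and vehicle in both.

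A difference of the BAPN effect with and without fasudil was tested as an interaction over the 12 libraries. The week on BAPN alone in the combined group is part of this difference. No gene passed with limma (0%), and 610 (4.66%) had an unadjusted p under 0.05. Adding BAPN replicate 2 as recovered from the authors' group mean, an alternative chosen after seeing the data, gave 1 gene. Without BAPN replicate 3, which leaves the library with the high immunoglobulin share as the sole BAPN library, 26 genes passed, and without BAPN replicate 1, 0. For Sertad1 and Arid5a the differences were 1.19 ± 0.24 and 1.51 ± 0.39 (SE), with adjusted p of 0.868 and 0.928.

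The lists are set beside BAPN against vehicle by the median log2 fold change for BAPN, first with fasudil, then without it, then without it and with BAPN replicate 3 alone. Macrophage genes had 1.43 with fasudil, 1.39 without it and 0.99 with BAPN replicate 3 alone. Fatty acid oxidation genes had -1.05 with fasudil, -1.75 without it and -0.89 with BAPN replicate 3 alone, so whether the value without fasudil was the larger or the smaller rested on BAPN replicate 1. Cholesterol synthesis genes had -0.68 with fasudil, 0.14 without it and 0.02 with BAPN replicate 3 alone. Red cell genes had 1.73 with fasudil, 0.13 without it and -0.09 with BAPN replicate 3 alone. Cytoskeletal targets of serum response factor had 1.02 with fasudil, 0.35 without it and 0.04 with BAPN replicate 3 alone. In no member of any list did the interaction pass, so these medians are descriptions. For 9 of the 12 named higher genes the vehicle mean was above the fasudil mean, and for 5 all vehicle libraries lay above all fasudil libraries. One of those 5 is Sertad1, with 8.09, 7.44 and 7.11 scaled FPKM in fasudil aortas, against 13.3, 13.1, 13.3 and 9.37 in vehicle aortas. The naming rule chose these 12 for low values in the same fasudil libraries, which favours such counts, and the share over all genes was not computed. Among the 12 named lower genes the vehicle mean was above the fasudil mean in 7. All vehicle libraries lay above all fasudil libraries in 2 of these and below them in 1 of the 12.

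**Figure D5:**
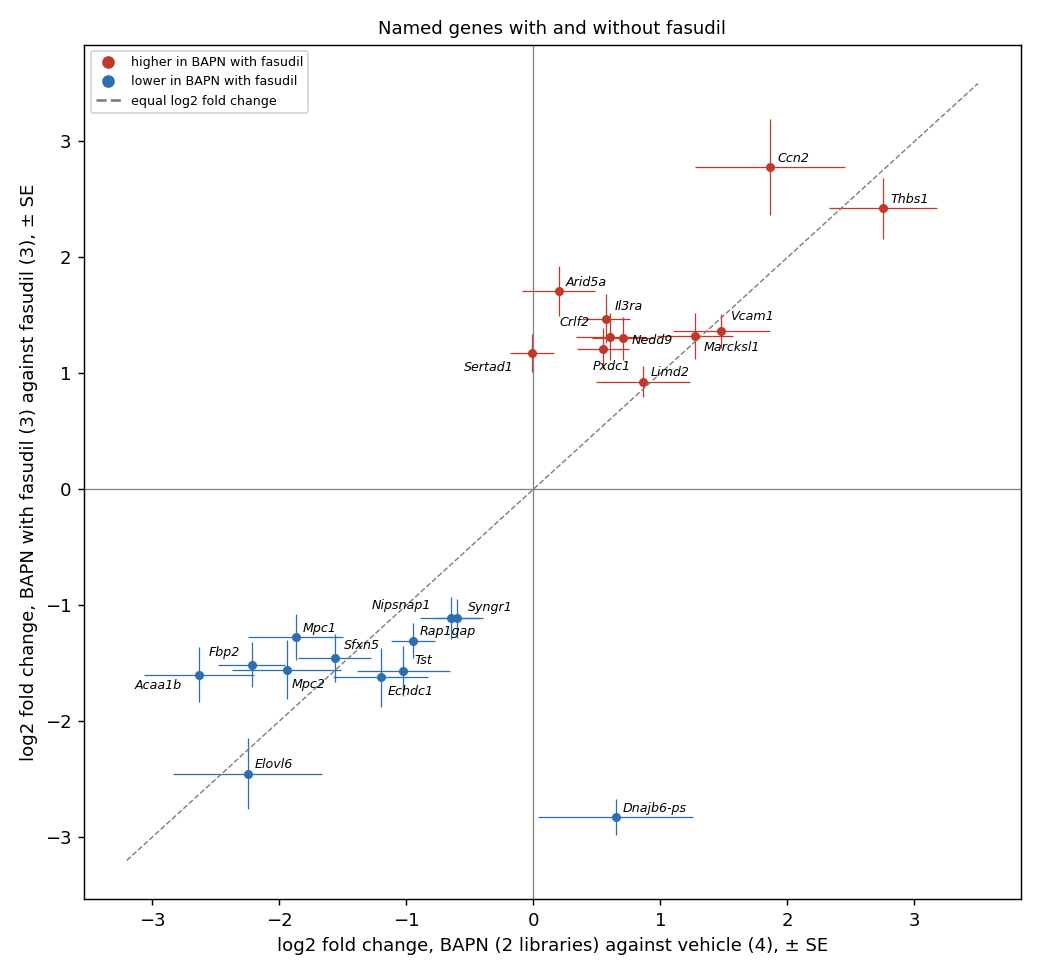
log2 fold change of 23 genes chosen by the naming rule in BAPN with fasudil against fasudil (vertical, 3 libraries each) and in BAPN against vehicle (horizontal, 2 and 4 libraries), with SE bars; the dashed line marks equal values. Thbs1, Vcam1 and Elovl6 lie near the line; the place of Dnajb6-ps, listed at 0 in combined libraries, depends on the pseudocount. The genes were chosen on the vertical axis.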

How the data were processed

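RNA was sequenced from 13 mouse aorta samples, and 6 enter the main comparison. The authors deposited 1 table of FPKM values per gene, 2 decimals, with 36082 records, 7572 of them without values. Per the submitters' processing notes, Bowtie2, RSEM and DESeq2 were used and the builds GRCm39 and mm10 are named, with neither versions nor settings. The coordinates were taken as GRCm39, since 2.53% of 28350 genes share a start with an annotation of the older build. A deposited column of transcript lengths served to estimate depth. The deposited BAPN column 2 equals column 1 plus 1 in all 28510 genes, so that 1 column was not used.

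FPKM values were scaled between libraries by a trimmed mean of log ratios (30% of ratios and 5% of levels trimmed at each end), and log2(scaled FPKM + 1) was tested with limma 3.58.1 (R 4.3.3), with an intensity trend and robust prior, and Benjamini-Hochberg adjustment over 13099 genes. This scale understates fold changes of low genes. No counts were used. The code was tested on simulated data. Tables and figures used Python 3.11.15, pandas 2.3.3, numpy 2.4.6 and matplotlib 3.10.9.

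Genes past the threshold with groups that do not overlap and a mean of at least 5 scaled FPKM were to be named by fold change, and otherwise the 12 with the smallest p in each direction. Predicted and mitochondrially encoded genes were left out, the lysyl oxidases, Rock1 and Rock2 were always named, and each of 45 lists gave up to 4 members by smallest p. Further list members, such as Col1a1, Tagln, Myh11, Mmp2, Spp1 and Cidea, were named after their values were seen. The comparison, lists and motifs were chosen with earlier results of these data known. Replicate numbers follow accession order, and the labels pair no samples by them. Some genes and lists are not reported here. The interaction was fitted over 12 libraries.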

Additional observations from a re-analysis of the deposited data

Results flagged for a closer look

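In 30 genes the 4 vehicle libraries were searched for a library far from the others, and 2 were found. Chance flags about 1 in 20 groups. Thbs1 had 3.41 scaled FPKM in vehicle replicate 3, against 1.104 to 1.38 in the other vehicle libraries. That library also held airway genes at a summed 15670.0 scaled FPKM, whose part in the value was not tested. Sertad1 had 9.37 scaled FPKM in vehicle replicate 4, against 13.1 to 13.3 in the other vehicle libraries. Neither library enters the comparison of BAPN with fasudil against fasudil.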

How the results depend on the processing

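The count of genes past the threshold in BAPN with fasudil against fasudil (1) stayed at 1 with no scaling (which moved the median of all genes to 0.16 on the log2 scale), with median-of-ratios scaling, with scaling to genes off the mitochondrial chromosome, with a pseudocount of 0.5, with no filter, with a filter of 3 libraries and without the robust prior. It was 0 with a pseudocount of 0.1 and 0 with pseudogenes and predicted genes left out, the last chosen after seeing the data. It was 3 with all 4 groups in the fit and 3 with vehicle added, neither with Dnajb6-ps (adjusted p = 0.129 and 0.0831 with limma), and 4468 with array weights. With 1 library left out it ranged from 0 to 669. Same-numbered libraries of the 2 groups correlated at -0.03, -0.34 and 0.01 in their deviations. With 3 libraries a group such values cannot exclude a pairing. With the replicate block the count was 0. The cause was not tested.

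For the interaction the count of 0 became 26 without BAPN replicate 3, and 1 with recovered BAPN replicate 2 added. The 24 named genes kept their direction in every setting tried that held them (23 with pseudogenes and predicted genes left out). The naming rule required groups without overlap, so leaving out a library could not reverse them, and their constancy is no independent check. Over the 201 genes recomputed, those of the naming rule and not every list member, the log2 fold change reversed in 15 cases. With array weights it was -0.005 for Ltf, -0.080 for Csf3r, -0.146 for S100a8, 0.004 for Mbp, -0.018 for Itga2b, -0.033 for Bpifa1 and -0.002 for Krt8. With 1 library left out, the log2 fold change of S100a8 ranged from -0.285 without combined replicate 1 to 1.639, the log2 fold change of Scgb1a1 from -0.196 without combined replicate 2 to 2.904, and the log2 fold change of Bpifa1 from -0.333 without the same library to 2.431. The log2 fold change of Gp9 ranged from -0.712 to 0.349, above 0 without combined replicate 3 (0.049) or fasudil replicate 2 (0.349). The log2 fold change of Pln ranged from -1.022 to 0.301, above 0 without fasudil replicate 1. The log2 fold change of Tnnt2 ranged from -0.257 to 1.957 and the log2 fold change of Myl3 from -0.067 to 0.564, each below 0 without fasudil replicate 2. Depth is an estimate, so no counting intervals were given, and 3 libraries a group limit the precision.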
